A study of Mus musculus with 6 samples.

Results

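Cacna1e on mouse chromosome 1 was examined through the 46 open chromatin regions that lie nearest to it, out of 69171 regions in the series. The regions were built by merging the ATAC-seq peaks of all 6 libraries wherever peaks shared at least 1 bp, and a region belonged to Cacna1e when no other protein-coding gene interval of RefSeq (GRCm38, the assembly that mm10 names) was nearer and the distance was at most 100 kb. The gene itself was chosen from its peak calls, since it is among the genes with most regions called in each pc-BMAC library and in no plasma cell library. Its calls in pc-BMACs against those in plasma cells are therefore given as a description, with no test, and nothing is supported with them.

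ATAC-seq marks DNA that a transposase can reach, which is usually DNA free of nucleosomes. Cells came from the bone marrow of naive Adig mice on the Balb/c strain, which carry a transgene that places GFP under regulatory elements of Aire, a regulator best known for driving tissue-restricted antigens in the thymus. The pc-BMACs (AireGFP+B220-CD138+TACI+) have the surface markers of plasma cells together with reporter signal, and they were set beside plasma cells without it (AireGFP-B220-CD138+TACI+) and beside immature B cells (AireGFP-B220+CD138-TACI-IgM+). There were 2 libraries per population, each made from between 2000 and 15000 sorted cells per the labels, which give neither the age of the mice nor whether the 2 libraries came from different animals. The reporter is read as GFP, so the sort selects reporter signal rather than Aire protein.

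Cacna1e encodes the pore-forming subunit of the R-type voltage-gated calcium channel. Such a pore opens when the membrane depolarises and lets calcium into the cell, and auxiliary beta and alpha2-delta subunits set its surface level and gating. The channel is best known from neurons and endocrine cells. Lymphocytes take up calcium mainly through another route, in which the store sensors Stim1 and Stim2 open Orai channels after receptor signalling, and calcineurin then activates NFAT factors.

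The depth of the libraries is unknown, because the deposited lists hold peak positions and no read counts, so a region without a call is not shown to be closed. The lists held 38607 and 34070 peaks for pc-BMACs, 37821 and 36723 for plasma cells, and 51643 and 46534 for immature B cells. All 8 plasma cell marker genes had a called region in every pc-BMAC and plasma cell library. Immature B cell 1 also had a call at all 8, and immature B cell 2 lacked a call at Jchain only. The presence of a called region at these genes thus did little to separate the sorts. All 8 B cell marker genes had one in every plasma cell and immature B cell library, while pc-BMAC 2 had none at 2 of them. Aire had 2 regions, called in all 6 libraries, so peak calls at Aire did not separate the sorts. Neuronal and endocrine markers had 14 and 11 called regions in pc-BMACs compared with 14 and 17 in plasma cells and with 32 and 29 in immature B cells. Erythroid markers had 2 and 1 called regions in pc-BMACs compared with 8 and 4 in plasma cells and with 3 and 3 in immature B cells. Plasma cell 1 had a call at all 6 erythroid genes and plasma cell 2 lacked one at 4 of them, the globin genes Hba-a1 and Hbb-bt among these. T and NK markers had 8 and 5 called regions in pc-BMACs, 12 and 11 for plasma cells and 10 and 7 for immature B cells, and myeloid markers 5 and 6, 7 and 10, and 5 and 7. Dendritic markers had 54 and 47, 49 and 48, and 69 and 62. The part of these cell types in the Cacna1e calls was not tested.

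The Cacna1e interval (gene ID 12290) spans chr1:154390806-154884785 on the minus strand, 494.0 kb, so transcription runs toward lower coordinates. RefSeq lists 23 transcripts for it, of which 22 are predicted models, and its promoter table gives 1 start, at position 154725920. That start lies inside the interval, with 158.9 kb of the interval upstream of it and 335.1 kb downstream. Distances below are counted from this start, called the annotated start. Its 300-base promoter window is shown because the region nearest to it was called in some populations and not in others. It is the RefSeq sequence of GRCm38.p6 at chr1:154725871-154726170, minus strand, 250 bases before the start and 50 from it, with the 1 GGAA core of ETS factors in capitals.
Cacna1e promoter: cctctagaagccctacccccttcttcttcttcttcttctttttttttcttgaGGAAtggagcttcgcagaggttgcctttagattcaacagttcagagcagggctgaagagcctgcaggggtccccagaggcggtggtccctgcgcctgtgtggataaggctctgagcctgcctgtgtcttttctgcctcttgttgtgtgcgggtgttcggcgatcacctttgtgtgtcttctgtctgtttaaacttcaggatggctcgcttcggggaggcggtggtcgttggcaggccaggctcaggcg

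The window held 11 CpG dinucleotides and 55.3% G and C, against medians of 7 and 52.7% over the promoter windows of the table. On both strands it held none of the other motifs searched. These were TGANTCA of AP-1 factors, TGTGGTT of RUNX factors, ATGCAAA, which is part of the octamer, CAGCTG and CAGGTG of E-box factors, and GAAA followed after 2 bases by GAAA of IRF factors. A GGAA core is found in 96% of the 32851 windows, and the other motifs in 3.44% (the IRF repeat) to 20.2% (CAGGTG). Matches are letters only, and motifs were not searched in the regions themselves, for lack of a genome sequence.

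The promoter window overlapped no called region in any library. The nearest region began 430 bp upstream of the window (681 bp upstream of the annotated start), at chr1:154726601-154727237. It was called in both pc-BMAC libraries, with peaks of 637 and 305 bp, and in both plasma cell libraries, with peaks of 278 and 188 bp. No immature B cell library had a call there. The region beside the annotated start was thus shared by the CD138+TACI+ sorts.

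Across the locus, pc-BMACs had the most called regions. Of the 46 regions, 34 (73.9%) and 30 (65.2%) were called in the pc-BMAC libraries, against 18 (39.1%) and 12 (26.1%) in those of plasma cells, with 22 (47.8%) and 17 (37%) in those of immature B cells. The averages were 32.0 ± 2.83 regions for pc-BMACs, 15.0 ± 4.24 for plasma cells and 19.5 ± 3.54 for immature B cells (SD, n = 2 each). The lowest pc-BMAC library was above the highest library of either other population, while plasma cells and immature B cells overlapped. Over all 65361 regions assigned to a gene the order was different, with 56.3% and 48.8% called in pc-BMACs compared with 52.8% and 51.3% in plasma cells and with 73.8% and 64.9% in immature B cells. Regions called in both libraries of a population were 29 of 46 (63%) for pc-BMACs, beside 45.7% of all assigned regions, 12 (26.1%) for plasma cells, beside 45.2%, and 14 (30.4%) for immature B cells, beside 60.6%.

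**Figure D1:**
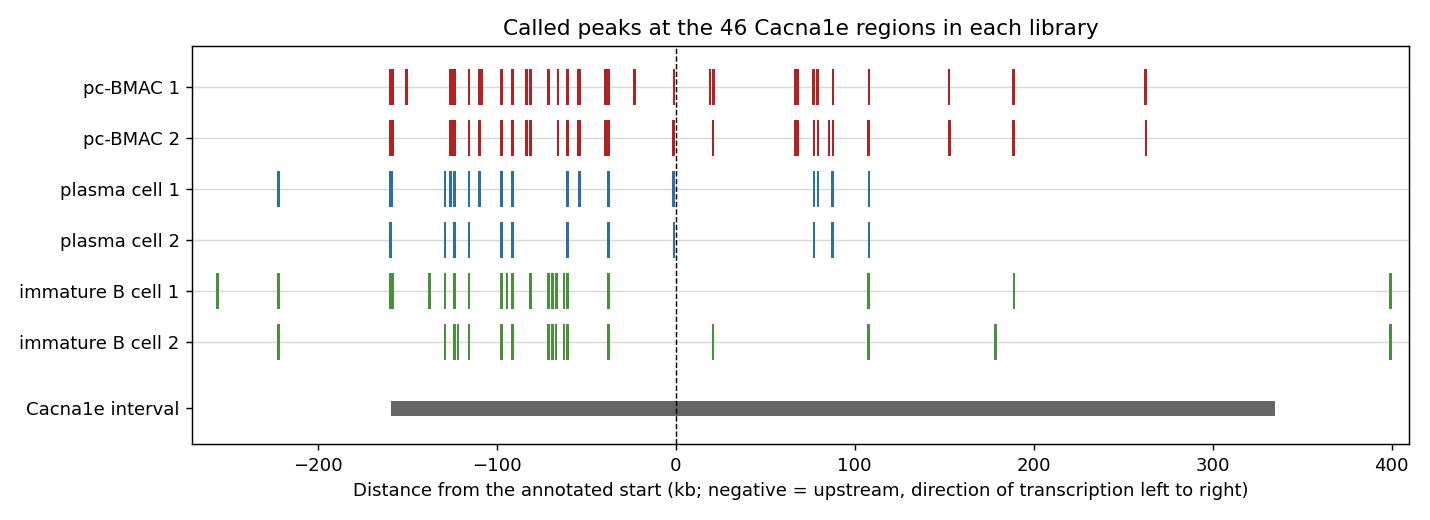
Each coloured bar is a called peak at 1 of the 46 Cacna1e regions, in the library named on the vertical axis; the horizontal axis is the distance from the annotated start in kb, negative upstream, with transcription running left to right. Peaks narrower than 1.5 kb are drawn 1.5 kb wide. The grey bar is the gene interval; pc-BMAC rows hold 34 and 30 called regions, plasma cell rows 18 and 12, and immature B cell rows 22 and 17.

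The bases covered by peaks were likewise most in pc-BMACs, though immature B cell 1 came close to pc-BMAC 2. Peaks covered 13.47 and 10.03 kb of the interval in pc-BMACs (33 and 29 peaks), against 5.72 and 4.37 kb in plasma cells (16 and 11 peaks), with 9.82 and 5.48 kb in immature B cells (18 and 15 peaks). In bases of the interval per Mb covered genome-wide by the same list, pc-BMACs had 469 and 429, plasma cells 261 and 203, and immature B cells 266 and 211. The lists covered 28.7 and 23.4 Mb for pc-BMACs, 21.9 and 21.5 Mb for plasma cells, and 36.9 and 26.0 Mb for immature B cells. The median peak width in the interval was 372 and 324 bp for pc-BMACs, 369 and 392 bp for plasma cells and 438 and 345 bp for immature B cells, and all 6 medians were below those of the full lists (523, 489, 404, 414, 453 and 386 bp in the same order of libraries). The larger cover in pc-BMACs came with more peaks, while the median widths of the 3 populations overlapped.

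Agreement between replicate libraries is given as a description, since the gene was chosen on regions that both pc-BMAC libraries call. Both pc-BMAC libraries called 29 of the 35 regions that either called (82.9%), both plasma cell libraries 12 of 18 (66.7%) and both immature B cell libraries 14 of 25 (56%). Over all assigned regions these shares were close to one another, at 76.9%, 76.8% and 77.5%. The 12 regions of plasma cell 2 were all called in plasma cell 1, which called 6 more.

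A call in each pc-BMAC library and in no plasma cell library was seen at 13 of 46 regions (28.3%), beside 6.24% of all assigned regions, and the opposite pattern at 1 of 46 (2.17%), beside 6.62%. These are the calls for which the gene was chosen. Against immature B cells, which share the pc-BMAC libraries with the comparison just given, 16 regions (34.8%) were called in each pc-BMAC library and in no immature B cell library, beside 9.99% of all assigned regions. The opposite pattern held for 6 (13%), beside 21.9%. In the comparison that leaves pc-BMACs out, 3 regions (6.52%) were called in each plasma cell library and in no immature B cell library, beside 5.79%, which is near the background. Another 5 (10.9%) had the reverse pattern, beside 16.4%. These counts rest on single libraries, and leaving a library out also loosens the rule, so the shares over all assigned regions rose too. Without plasma cell 2, plasma cells over immature B cells had 7 of 46 (15.2%, beside 9.89%). Plasma cells over pc-BMACs then had 2 (4.35%, beside 10.5%). Immature B cells over plasma cells had 8 of 43 (18.6%, beside 22.2%) without immature B cell 1. Without immature B cell 2 they had 11 of 44 (25%, beside 28.2%).

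The labels give each library an R number, whose meaning is not stated, and libraries that share one were set against each other. Between pc-BMAC 2 and plasma cell 1, 14 regions (30.4%, beside 9.61% of all assigned regions) were called in pc-BMAC 2 only and 2 (4.35%, beside 13.6%) in plasma cell 1 only. Between pc-BMAC 1 and immature B cell 1, 21 (45.7%, beside 16.2%) were in pc-BMAC 1 only and 9 (19.6%, beside 33.8%) in immature B cell 1 only. Between plasma cell 2 and immature B cell 2, 4 (8.7%, beside 9.32%) were in plasma cell 2 only and 9 (19.6%, beside 22.8%) in immature B cell 2 only, both near the background. These pairs have 1 library on each side and so no spread.

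Most Cacna1e regions lie in the body of the gene, where regions called in all 6 libraries make up a smaller share than among all assigned regions. Of the 46 regions, 40 lie inside the gene and over 1 kb from any gene end, and 12 of these (30%) were called in each pc-BMAC library and in no plasma cell library, beside 8.51% of all such regions of the genome, and 1 (2.5%) the reverse, beside 7.19%. Against immature B cells the counts were 16 (40%), beside 13.7%, and 4 (10%) for the reverse, beside 23.4%. For plasma cells over immature B cells they were 3 (7.5%), beside 7.53%, and 4 (10%) for the reverse, beside 18.1%. Both libraries called 26 (65%) in pc-BMACs, beside 39.2%, 11 (27.5%) in plasma cells, beside 36.6%, and 12 (30%) in immature B cells, beside 51.8%. In the same class, 7 (17.5%) were called in all 6 libraries, beside 19.9%, whereas over all assigned regions the shares were 15.2% and 30.6%. The low share of regions common to all libraries at Cacna1e was thus close to that of other gene-body regions. Gene-body regions of one population alone numbered 9 (22.5%) for pc-BMACs, beside 6.48%, none for plasma cells, beside 1.9%, and 3 (7.5%) for immature B cells, beside 15%.

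**Figure D2:**
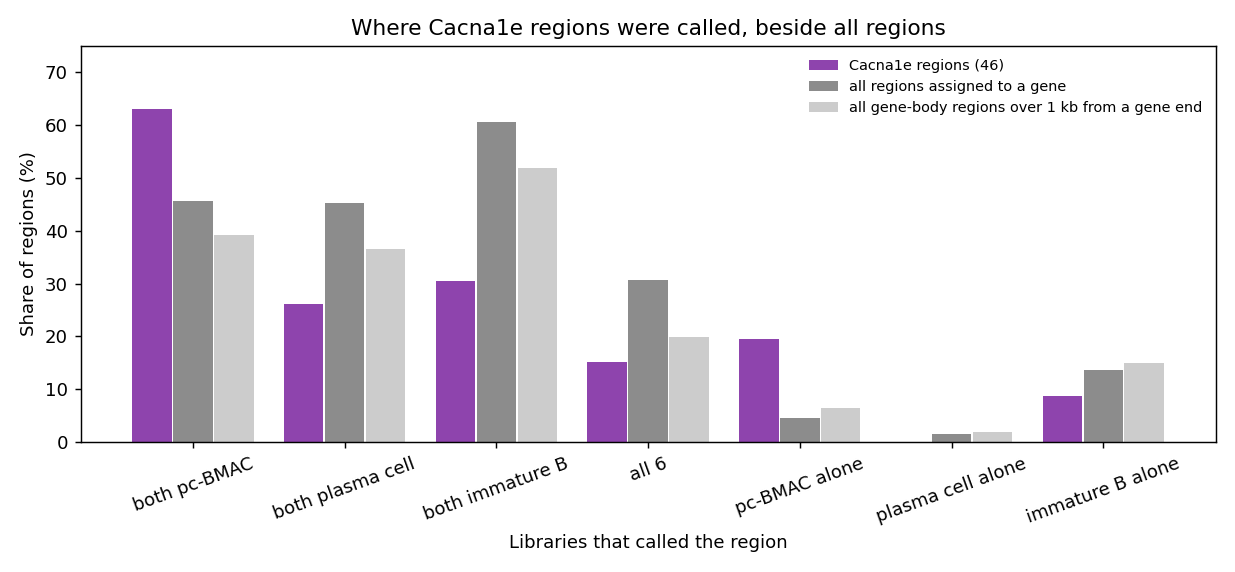
Bars give the share of regions (%, vertical axis) called in the libraries named below them, for the 46 Cacna1e regions (purple), all regions assigned to a gene (dark grey) and all gene-body regions over 1 kb from a gene end (light grey). Both pc-BMAC libraries called 63% of Cacna1e regions beside 45.7% of all assigned regions, and pc-BMACs alone 19.6% beside 4.53%; no Cacna1e region was called in plasma cells alone.

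The full pattern of calls accounts for every region. In both pc-BMAC libraries and no other library there were 9 regions (19.6%, beside 4.53% of all assigned regions). In both immature B cell libraries and no other there were 4 (8.7%, beside 13.6%), and in both plasma cell libraries and no other there was none (0 of 46, beside 1.51%). All 6 libraries shared 7 regions. The pc-BMAC and plasma cell libraries, without immature B cells, shared 3 (6.52%, beside 3.73%). Another 4 had calls in both pc-BMAC libraries and 1 plasma cell library (8.7%, beside 1.73%), which was plasma cell 1 each time. A further 4 had calls in both pc-BMAC libraries and 1 immature B cell library (8.7%, beside 0.635%), and none in every pc-BMAC and immature B cell library without plasma cells (beside 1.07%). Both pc-BMAC libraries were joined by plasma cell 1 and immature B cell 1 at 1 region (2.17%, beside 0.427%). At 1 other they were joined by both plasma cell libraries and immature B cell 1 (2.17%, beside 1.2%). Regions called in a single library numbered 10, of which 5 were in a pc-BMAC library (10.9%, beside 5.93%, 150 to 424 bp wide) and 5 in an immature B cell library (10.9%, beside 12.7%, 150 to 1314 bp wide). The last 3 had calls in both immature B cell libraries. They were joined by both plasma cell libraries at 1 region (beside 4.68% of all assigned regions). Plasma cell 1 joined them at another (beside 3.57%) and pc-BMAC 1 at the other (beside 1.71%). Where only 1 library of a population had the call, the share over all assigned regions counts either library of that population.

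The 9 regions of pc-BMACs alone were spread along the gene and did not form a single block. Downstream of the annotated start lay 4 of them, at distances of 262.7, 152.8, 68.2 and 67.1 kb. Upstream lay 5, at 39.3, 54.4, 65.7, 83.4 and 125.1 kb. The farthest downstream, chr1:154463016-154463426, had peaks of 384 and 324 bp in the pc-BMAC libraries and was the most 3′ region inside the gene in any library. The next, chr1:154572940-154573286, had peaks of 321 and 274 bp. Between them lay 1 region called in both pc-BMAC libraries and immature B cell 1, and 1 called in immature B cell 2 only.

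The only neighbouring regions called in pc-BMACs alone were a pair 740 bp apart, chr1:154657504-154657939 and chr1:154658680-154658956. The first had peaks of 436 and 299 bp in the pc-BMAC libraries and the second 277 and 191 bp. Both lie in the downstream part of the gene, where regions of the other populations were few. Of the upstream ones, chr1:154850778-154851359 showed the largest difference between the pc-BMAC libraries, with peaks of 582 and 213 bp, and lay 927 bp from a region called in all 6 libraries. The region at chr1:154765030-154765343 (peaks of 314 and 275 bp) lay 1434 bp from such a shared region, while the distance was 4803 to 154303 bp for the other 7. The median width of the 9 regions was 339 bp, beside 361 bp for all assigned regions with this pattern.

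The pattern changed from one population to another within short distances. The region chr1:154791485-154791823 was called in pc-BMACs alone (peaks of 339 and 293 bp), and 152 bp from it lay chr1:154791976-154793057, called in immature B cells alone (peaks of 1082 and 284 bp). The peak of immature B cell 2 began at 154792617, so the short distance rests on immature B cell 1. Both lie beside the interval of the long non-coding RNA Gm51649 (154786985 to 154791359), at 126 and 617 bp from it. A region inside Gm51649 itself, chr1:154788127-154788474, was called in immature B cells alone (peaks of 348 and 275 bp), and chr1:154786177-154786681, 304 bp outside its other end, was called in all 6 libraries. Of the 4 regions of immature B cells alone, 3 lay in this stretch, at 62.4, 66.6 and 68.8 kb upstream of the annotated start, and the other lay outside the gene, 64.2 kb past its 3′ end. Without immature B cell 2 the count of regions in immature B cells alone was 7 of 44 (15.9%, beside 24.1% of all assigned regions).

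**Figure D3:**
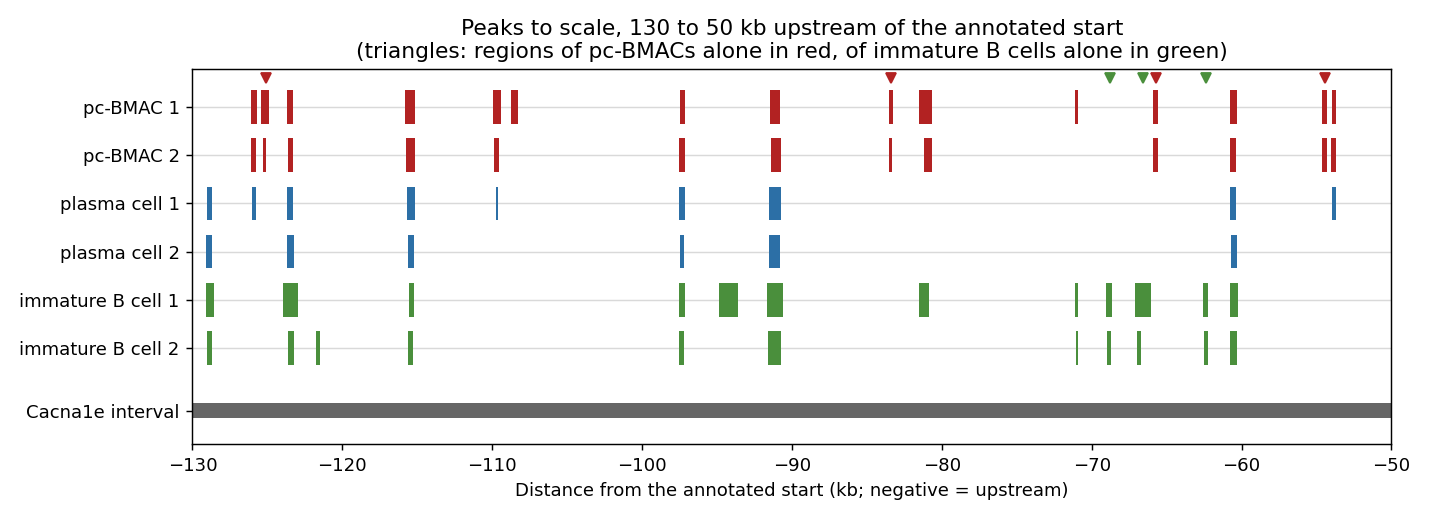
Called peaks, drawn to scale, from 130 to 50 kb upstream of the annotated start (horizontal axis, kb) in each library (vertical axis); red triangles mark regions called in pc-BMACs alone and green triangles those in immature B cells alone. The red triangle at 65.7 kb upstream stands beside the green one at 66.6 kb, the pair of regions 152 bp apart.

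Regions of all populations were denser upstream of the annotated start than downstream of it. The upstream part of the interval held 29 regions, or 18.3 per 100 kb, and the downstream part 13, or 3.88 per 100 kb. Regions called in both libraries numbered 18 upstream and 10 downstream for pc-BMACs (of 29 in all), 8 and 3 for plasma cells (of 12), and 11 and 1 for immature B cells (of 14). Per 100 kb this is 11.3 upstream and 2.98 downstream for pc-BMACs, 5.04 and 0.895 for plasma cells, and 6.92 and 0.298 for immature B cells. The low immature B cell count rests partly on the rule of both libraries. Single libraries had 2 of 22 and 3 of 17 regions downstream in immature B cells. They had 4 of 18 and 3 of 12 in plasma cells, and 11 of 34 and 11 of 30 in pc-BMACs. The single downstream region called in both immature B cell libraries, chr1:154617730-154618498, was called in all 6 libraries, with peaks of 351 and 288 bp in pc-BMACs compared with 437 and 464 bp in plasma cells and the widest, 712 and 607 bp, in immature B cells. The difference between the upstream and downstream stretches was not tested.

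Over 10 equal stretches of the interval, from the 5′ end, regions called in both pc-BMAC libraries numbered 7, 6, 4, 2, 5, 1, 1, 1, 1 and 0. For plasma cells the numbers were 3, 3, 1, 1, 2, 1, 0, 0, 0 and 0, and for immature B cells 3, 7, 1, 0, 0, 1, 0, 0, 0 and 0. Calls shared by both pc-BMAC libraries thus reached the ninth stretch, while shared calls of the other populations ended in the sixth. The fifth stretch held 5 regions of pc-BMACs, 2 of plasma cells and none of immature B cells. It includes chr1:154637612-154638419 and chr1:154648509-154648938, called in both libraries of pc-BMACs and of plasma cells, and chr1:154646300-154646646, called in both pc-BMAC libraries and plasma cell 1.

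The regions shared by all 6 libraries lay mainly upstream, 6 of 7. Their peaks did not tend to be wider in pc-BMACs: median widths were 443 and 401 bp for pc-BMACs, 437 and 440 bp for plasma cells, and 496 and 442 bp for immature B cells. Immature B cell 1 had the widest peak at 5 of the 7, and pc-BMAC 1 at the other 2. One of those 2, chr1:154841034-154841716, had peaks of 683 and 598 bp in pc-BMACs compared with 544 and 440 bp in plasma cells and with 350 and 355 bp in immature B cells, and its widths did not overlap between populations. The widest shared region, chr1:154816508-154817588, went the other way, with 683 and 633 bp in pc-BMACs compared with 847 and 729 bp in plasma cells, and 1081 and 845 bp in immature B cells. There the pc-BMAC peaks were narrower than all others, and the other populations overlapped. Widths also depend on depth, which is unknown.

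Within 1 kb of the 5′ end of the interval lay 3 regions, all called in both pc-BMAC libraries. The region just outside the gene, chr1:154884985-154885440, had peaks of 450 and 323 bp in pc-BMACs compared with 290 and 251 bp in plasma cells, and 150 bp in immature B cell 1, with none in immature B cell 2. The next, chr1:154884235-154884675, had 328 and 441 bp in pc-BMACs, 150 bp in plasma cell 1 and 325 bp in immature B cell 1. The third, chr1:154883709-154884002, had 247 and 230 bp in pc-BMACs and 150 bp in immature B cell 1. Plasma cell 2 lacked 2 of these calls and immature B cell 2 all 3. A peak of 150 bp is the narrowest in the lists. No region was called within 1 kb of the 3′ end.

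The 1 region called in each plasma cell library and in no pc-BMAC library, chr1:154854507-154855033, lay 128.8 kb upstream of the annotated start, with peaks of 378 and 418 bp in plasma cells and 527 and 347 bp in immature B cells. Its neighbour 2475 bp away, chr1:154851585-154852031, was called in both pc-BMAC libraries and plasma cell 1.

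The regions outside the gene had more calls of immature B cells than of pc-BMACs, which was also the order over all assigned regions. There, 73.8% and 64.9% were called by the immature B cell libraries, against 56.3% and 48.8% by the pc-BMAC libraries. With 4 regions, a difference from those shares cannot be told. Of the 4 regions outside, the one adjoining the 5′ end is described above, and the other 3 had no pc-BMAC call. They lay 62895 bp and 97.2 kb beyond the 5′ end, and 64.2 kb beyond the 3′ end. The one at 97.2 kb, close to the limit of 100 kb, was called in immature B cell 1 only. The first region past the limit, 109.3 kb from the gene, was called in 1 plasma cell library only. On the 3′ side the next region was 209.5 kb away, nearer to the zinc finger gene Zfp648, and had calls in 1 plasma cell library and both immature B cell libraries.

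In the flanks of the gene, as over all assigned regions, pc-BMACs did not have the most calls. In the 500 kb beyond the 3′ end, 6 and 4 of 16 regions were called in pc-BMACs compared with 7 and 6 in plasma cells and with 12 and 10 in immature B cells. In the 500 kb beyond the 5′ end, 24 and 20 of 43 regions were called in pc-BMACs compared with 25 and 23 in plasma cells and with 29 and 25 in immature B cells. Regions called in each pc-BMAC library and in no plasma cell library numbered 13 of 42 (31%) in the gene. Beyond the 3′ end there were 0 of 16 and beyond the 5′ end 1 of 43, beside 6.24% of all assigned regions. The 13 are calls for which the gene was chosen. Those with the reverse pattern numbered 1 of 42 (2.38%) in the gene, 0 of 16 beyond the 3′ end and 3 of 43 beyond the 5′ end, beside 6.62%. The nearest genes with regions were Zfp648, Glul and Rgsl1 on the 3′ side and Ier5, Mr1 and Stx6 on the 5′ side. Ier5, an immediate early response gene 211.6 kb from Cacna1e, had 16 regions, of which 13 and 12 were called in pc-BMACs compared with 12 and 12 in plasma cells and with 13 and 14 in immature B cells. Mr1, which encodes the molecule that presents vitamin metabolites to MAIT cells, had 5 and 2, 2 and 2, and 2 and 2 of 5 in the same order. Glul, the glutamine synthetase gene, had 2 and 1, 1 and 2, and 2 and 3 of 4. Stx6, a syntaxin of vesicle traffic, held the 1 region with calls in each pc-BMAC library and in no plasma cell library among these 6 genes.

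Among genes of similar length Cacna1e had many regions. Of 200 protein-coding genes of 400 to 600 kb, the median had 4 regions, 43 had none and 6 had more than Cacna1e. Over all 15278 genes with a region it ranked 15 by the number of regions, tied with 2 other genes, and 2 by the number called in both pc-BMAC libraries alone, tied with 1 other. For the 354 genes with at least 20 regions, the share of a gene's regions called in a population was averaged over its 2 libraries. Cacna1e had 69.6% for pc-BMACs, 32.6% for plasma cells and 42.4% for immature B cells, and the medians over these genes were 52.4%, 47.9% and 64.3%. The difference between pc-BMACs and plasma cells was 37 percentage points at Cacna1e, beside a median of 4.26, and ranked 4, tied with Tmem154. Ranks describe these libraries only, since the gene was selected by such calls.

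The genes most like Cacna1e were found by the Euclidean distance between the shares of regions called in each of the 6 libraries. The nearest was Hivep3, a zinc finger transcription factor gene, at a distance of 0.116. Of its 51 regions, 40 and 34 were called in pc-BMACs compared with 21 and 17 in plasma cells and with 28 and 20 in immature B cells. Sik3, a salt-inducible kinase, followed at 0.161 with 24 and 17, 10 and 11, and 15 and 12 of 31 regions in the same order. Bbs9, a subunit of the BBSome of cilia, and Dennd5b, a regulator of Rab GTPases, were both at 0.166 with 20 and 21 regions, and Ccser2 at 0.186 with 23. The 5 genes had 12, 7, 5, 2 and 3 regions called in pc-BMACs alone, beside 9 at Cacna1e. Points of this measure share libraries and list lengths, and the likeness says nothing of shared function.

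**Figure D4:**
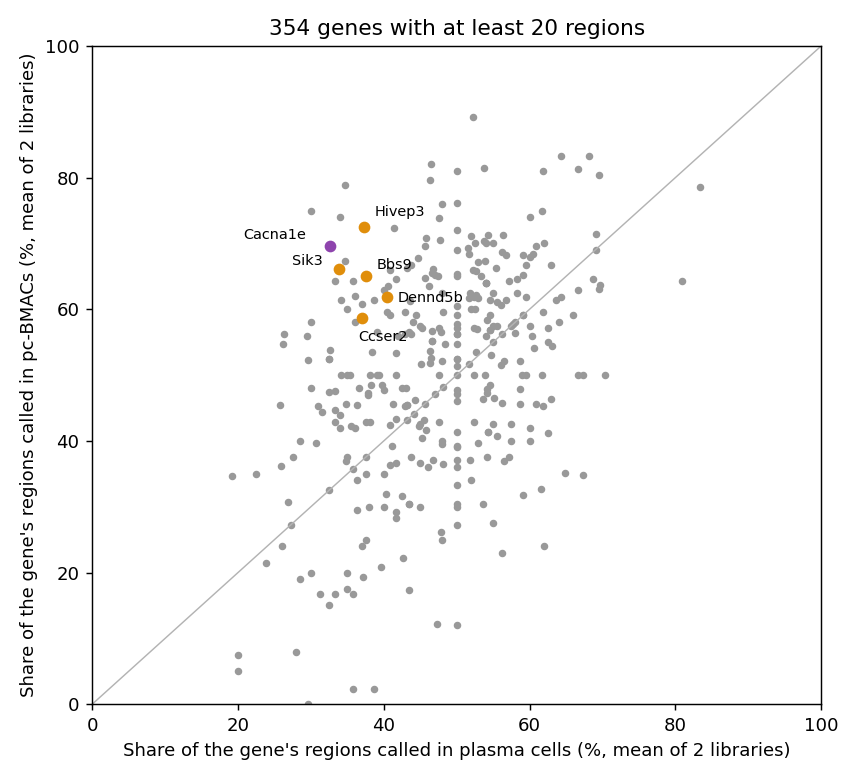
Each point is 1 of the 354 genes with at least 20 regions; the vertical axis is the share of its regions called in pc-BMACs and the horizontal axis the share called in plasma cells (%, means of 2 libraries each), with a line of equality. Cacna1e (purple) stands at 69.6% and 32.6%, and the 5 genes with the nearest pattern over 6 libraries are orange.

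Of the other pore-forming genes of voltage-gated calcium channels, all but Cacna1f had a region. Cacna1d (5 against 1), Cacna1h (2 against 0) and Cacna1a (1 against 0) had more regions called in each pc-BMAC library and in no plasma cell library than the reverse. These were 3 genes, and Cacna1b and Cacna1g had fewer (2 genes, at 0 against 1 each). Cacna1d, which encodes an L-type pore, had 28 and 21 of 34 regions in pc-BMACs compared with 19 and 15 in plasma cells and with 17 and 14 in immature B cells. It had 5 regions called in each pc-BMAC library and in no plasma cell library, and 1 with the reverse pattern. Cacna1h, a T-type pore, had 8 and 5 of 8 regions in pc-BMACs compared with 4 and 2 in plasma cells and with 2 and 2 in immature B cells. In both genes each pc-BMAC library was above every other library, as at Cacna1e. Cacna1a, a P/Q-type pore, had 2 and 3 of 9 in pc-BMACs compared with 2 and 1 in plasma cells and the most, 7 and 5, in immature B cells. Cacna1i, a T-type pore, likewise had most in immature B cells, with 2 and 2, 3 and 2, and 8 and 6 of 8. The 10 pore genes together had 21 regions of 119 (17.6%) called in each pc-BMAC library and in no plasma cell library, beside 6.24% of all assigned regions, and 4 with the reverse pattern (3.36%, beside 6.62%). Of the 21, 13 were at Cacna1e, for which it was chosen. Without it the other 9 genes had 8 of 73 (11%), of which 5 were at Cacna1d, and 3 with the reverse pattern (4.11%).

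**Figure D5:**
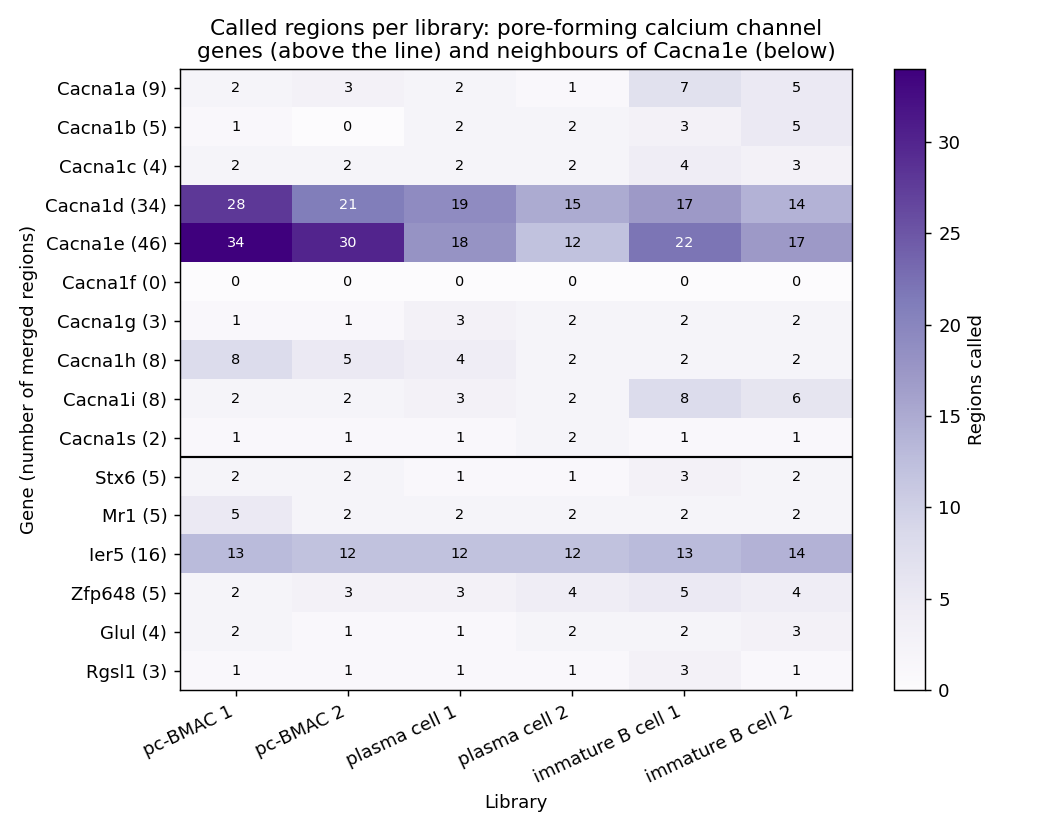
Each cell gives the number of regions called in a library (horizontal axis) at a gene (vertical axis, with its number of merged regions): the 10 pore-forming calcium channel genes above the line and the 6 neighbours of Cacna1e below it, from the 5′ to the 3′ side. Cacna1e and Cacna1d hold the most called regions among the pore genes, and Ier5 among the neighbours, with 12 to 14 in every library.

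Auxiliary channel subunits were counted in the same way. Of 16 genes, 14 had a region, 2 had more regions called in each pc-BMAC library and in no plasma cell library than the reverse, and 5 had fewer, with 4 (6.15%, beside 6.24% of all assigned regions) and 9 (13.8%, beside 6.62%) of 65 regions. The first share is at the background, and no difference from the pore genes was tested. Cacnb4 had 7 and 6 of 22 regions in pc-BMACs compared with 8 and 8 in plasma cells and with 15 and 11 in immature B cells. Cacnb3, another beta subunit gene, had 3 and 3 of 3 regions in pc-BMACs compared with 2 and 2 in plasma cells and with 1 and 1 in immature B cells. Genes of calcium entry and stores had similar counts in both directions, with 19 (8.26%, beside 6.24%) and 21 (9.13%, beside 6.62%) of 230 regions. Both shares were above those over all assigned regions. Of the 20 genes, 5 had more and 7 had fewer. Itpr2, an inositol trisphosphate receptor with more regions than Cacna1e, had 25 and 23 of 50 in pc-BMACs compared with 21 and 22 in plasma cells and with 36 and 28 in immature B cells. Orai1, the pore of store-operated entry, had 4 and 4 of 5 in pc-BMACs compared with 4 and 4 in plasma cells and with 2 and 2 in immature B cells. Ryr2, a ryanodine receptor, had no call in pc-BMACs compared with 1 and 1 in plasma cells and with 8 and 7 in immature B cells.

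Genes that respond to calcium had 11 (7.64%) and 9 (6.25%) of 144 regions in the 2 directions, with 4 of 12 genes having more and 3 fewer. Nfatc1, a calcineurin-dependent transcription factor, had 22 and 23 of 30 regions in pc-BMACs compared with 18 and 19 in plasma cells and with 18 and 14 in immature B cells. Camk4, a calmodulin-dependent kinase, had none of 4 in pc-BMACs compared with 3 and 3 in plasma cells and with 4 and 3 in immature B cells. These shares lie near the 6.24% and 6.62% of all assigned regions.

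The count depends on how many peaks are kept. With the widest 34070 peaks of each list, 40 Cacna1e regions were left and 15 were called in each pc-BMAC library and in no plasma cell library, beside 8.08% of all regions so assigned. With the widest 17035 peaks only 10 regions were left, and the count was 2 of 10 (20%), beside 6.04%, so most regions of the locus were lost with the narrower peaks. Each pc-BMAC library then called 5 of the 10, below its share over all assigned regions (67.8% and 67.1%). Plasma cells had 2 and 3 of the 10, and immature B cells 4 and 2. The higher pc-BMAC share beside all assigned regions was thus not kept in this setting.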

How the data were processed

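The deposited files are 6 headerless lists of peak positions, 1 for each library. Their deposited score is 1000 at every peak and was left unused. Bowtie2 2.3.3, HOMER 4.10, bedtools and mm10 come from the submitters' processing notes, which give no roles; peak settings are not stated there. Groups came from the sample titles.

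Peaks were read, merged and assigned with Python 3.11.15, pandas 2.3.3 and numpy 2.4.6, drawn with matplotlib 3.10.9, and the steps were tested on simulated data. A library had a region when at least 1 bp of a peak overlapped it. Where a region overlapped several genes, the gene with an end nearest to its centre took it. This assigned 65361 regions to 15278 of 21900 protein-coding genes. The RefSeq gene table gives no exons, so regions are placed only inside or outside gene intervals.

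The members and gene lists were chosen with earlier results of these data known. Genes named were Cacna1e, its 3 nearest genes with a region on each side, listed calcium genes and the 5 genes nearest in pattern. No test was made, since the locus was chosen on its calls and there were 2 libraries per group. The gene-body background was added after the calls were seen. Alternatives were 50% cover, merging at 100 bp, the widest peaks, the gene interval alone, each library left out, and pairs sharing an R number.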

Additional observations from a re-analysis of the deposited data

How the results depend on the processing

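Of 116 alternative values for the comparisons and the number of regions, 98 stayed within 1.5 times the count reported. This tally is no measure of stability, because some values could hardly move. A comparison keeps its count when the library left out belongs to neither population. Without immature B cell 1 or 2, for example, pc-BMACs not plasma cells stayed at 13. Merging at 100 bp left every one of these counts unchanged. With a call counted only where peaks covered 50% of a region, regions of plasma cells not in pc-BMACs numbered 2 (4.35%, beside 4.53% of all assigned regions). Those of plasma cells not in immature B cells numbered 1 (2.17%, beside 4.95%). With the widest 17035 peaks, 10 regions were left. The pc-BMAC libraries called 5 and 5 of them, beside 67.8% and 67.1% of all assigned regions. Plasma cell libraries called 2 and 3, beside 66.2% each, and immature B cell libraries 4 and 2, beside 67.4% and 66.2%. Of the 10 regions, 2 (20%, beside 6.04%) were in pc-BMACs and not plasma cells, and 3 (30%, beside 11.6%) in pc-BMACs and not immature B cells. In pc-BMACs alone were 2 (20%, beside 4.79%). Each other pattern compared had 0, beside 1.69% to 10.8%. The 10 regions are too few to tell any of these counts from such shares. Fewer peaks and the loss of narrow ones both come with this setting. In pairs sharing an R number, plasma cells not pc-BMACs gave 2 regions (4.35%, beside 13.6%) and immature B cells not plasma cells 9 (19.6%, beside 22.8%).

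With 1 library left out, the counts ranged from 13 to 18 for pc-BMACs not plasma cells, 1 to 2 for the reverse, 16 to 21 for pc-BMACs not immature B cells, 6 to 9 for the reverse, 3 to 7 for plasma cells not immature B cells and 5 to 11 for the reverse. They ranged from 9 to 13 for pc-BMACs alone, 4 to 7 for immature B cells alone and 0 to 0 for plasma cells alone, and from 42 to 46 for all regions. Leaving a library out loosens the rule, so no comparison fell below its full count, and these ranges are not a spread. Shares over all assigned regions rose as well. Without pc-BMAC 2, pc-BMACs not plasma cells had 18 of 45 (40%, beside 13.1%). Without immature B cell 2, immature B cells not plasma cells had 11 of 44 (25%, beside 28.2%). No paired analysis was possible because an R number joins only 1 library of each of 2 populations, which leaves 1 pair for each comparison. The counts within those pairs were taken in its place. Without depths, an uncalled region cannot be told from a shallow library.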
